A study of Mus musculus with 48 samples.

Results

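XX embryonic stem cells of the Pgk12.1 line were compared with XY cells of the E14 line before differentiation. The comparison rested on 4 of the 48 arrays in the series, chosen by their labels as the 2 XX arrays (replicates A and B) and the 2 XY arrays (replicates A and B) at 0 h. All 4 came from undifferentiated mouse cells that, per the labels, had been adapted between passages 21 and 26 to serum-free medium with 3 µM of the Gsk3 inhibitor CT-99021, 1 µM of the Mek1 inhibitor PD-0325901 and 100 U/ml of the cytokine LIF. For the rest of the series, cells of both lines and XO cells of the Pgk12.1 line were moved to differentiation medium containing Activin A and basic Fgf, on fibronectin, a change that takes naive stem cells towards epiblast stem cells, and were followed to 84 h. Each karyotype was represented by 1 named line. XX and XY cells therefore differed in genetic background as well as in sex chromosomes, and their contributions to a difference cannot be told apart from these 4 arrays. The XO cells carry the name of the XX line but have a single X chromosome, as XY cells do, and their 2 arrays at 0 h are given beside the main comparison.

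In female mouse embryonic stem cells both X chromosomes are active, and the silencing of one of them through the RNA Xist belongs to the exit from the naive state. A double dose of X-linked genes is known, in these cells, for a dampened response to Mek-Erk signalling, a lower level of DNA methylation and a slower exit from pluripotency. Female lines tend to lose an X chromosome in culture, which gives XO cells. E14 is a widely used male line of another origin.

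Levels are log2 expression values for 22745 Ensembl gene identifiers, so a difference of 1 is a factor of 2. The sources used here do not pair these identifiers with gene symbols or chromosomes. The labelled cell type and karyotypes were therefore not checked against marker genes, X-linked genes or Y-linked genes, and genes are described below by how they behaved. Array medians at 0 h were 6.98 and 6.98 in XX and 6.85 and 6.80 in XY. Across genes, the standard deviation of the difference between arrays was 0.389 between the XX replicates and 0.355 between the XY replicates. Between an XX and an XY array it was 0.572 to 0.615, larger than the 0.519 to 0.559 between XX and XO arrays and the 0.524 to 0.567 between XO and XY arrays. Nothing in the labels states that replicates A and B were grown separately. The p-values therefore measure the spread between arrays, which may be technical in part.

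The first question was how many genes differed between the lines in the naive state and in which direction. XX cells had a higher level of 2001 genes and a lower level of 827, so that 2828 genes, 12.4% of those tested, passed (limma, adjusted p under 0.05), 8.8% in the higher and 3.64% in the lower direction. The spread in this fit was estimated over 10 duplicated arrays. These were XX, XO and XY at 0 h, and XX and XO cells differentiated for 36 h. With only the 6 arrays at 0 h in the fit 2008 genes passed, and with only the 4 arrays of the comparison 1069. Without adjustment 6251 genes had p under 0.05. The median difference was 0.93 among genes higher in XX and -0.88 among genes lower in XX, and 0.088 over all genes. For comparison, the median standard deviation of a gene over replicates was 0.157 in XX and 0.131 in XY (n = 2 each). All called genes had both XX arrays on one side of both XY arrays, a pattern that 35.1% of all genes showed with XX above and 19.6% with XX below. Leaving out single arrays lowered the count, to 1673 when XX B was dropped, to 1319 when XY A was dropped and to 1343 when XY B was dropped.

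The large differences lay almost entirely on one side. By at least 2 log2 units, 157 genes were higher and 23 lower in XX, and by at least 3 units, 53 were higher and 2 lower, the latter being ENSMUSG00000003657 and ENSMUSG00000086173. At least 4 log2 units separated 21 genes with the higher level in XX and 0 with the lower level. This imbalance held when each array was centred on its median, with 48 genes higher and 2 lower by at least 3 log2 units, and after quantile normalization, with 47 and 2. The split of all called genes did not hold in this way. Centring gave 1247 higher and 1481 lower, so that the share higher in XX went from 70.8% to 45.7%, and quantile normalization gave 1394 and 1260, or 52.5%. Centring moved the all-gene median difference to -0.071. By at least 1 log2 unit, the share higher went from 74.1% to 55.2% with centring and to 61.1% with quantile normalization. The direction of the many small differences thus rests on the scaling of the arrays, and the size of the excess at 1 log2 unit does too. Differences of at least 2 log2 units were mostly higher in XX under the 3 scalings, with 78.4% after centring and 80.5% after quantile normalization.

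**Figure D1:**
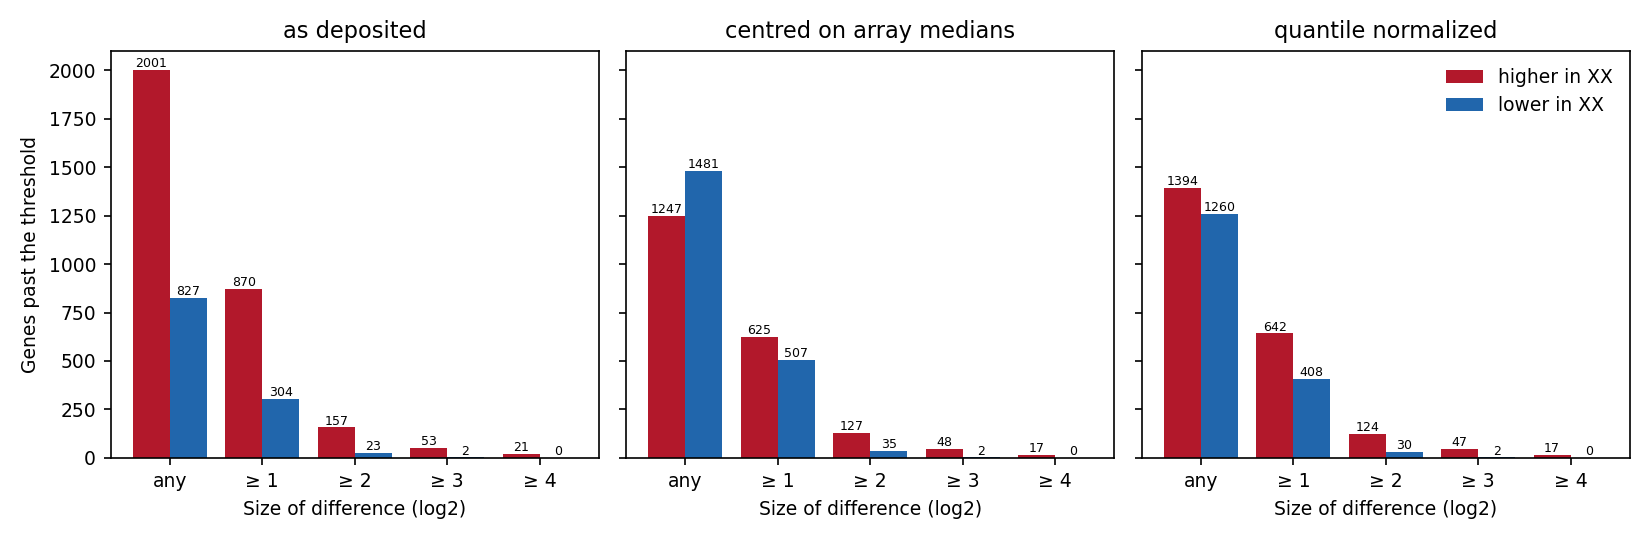
Number of genes past the threshold (limma, adjusted p under 0.05) at 0 h, as bars by the smallest size of the XX minus XY difference in log2 units, for the values as deposited, centred on array medians and quantile normalized. Red bars are genes higher in XX and blue bars genes lower in XX. The excess of higher genes reverses with centring over all called genes (1247 against 1481) but not at 3 log2 units or more (48 against 2).

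The share of genes that differed depended on their level. Genes were split into 4 classes of equal size by their mean level at 0 h. In the lowest class (below 5.53 log2 units) 5.43% passed, and in the next (to 6.87) 12.3%. In the third class (to 8.63) 17.5% passed and in the highest 14.5%. The median absolute difference among called genes was 1.01, 1.05, 0.95 and 0.75 from the lowest to the highest class. Within each class most called genes were higher in XX, between 67.8% and 78.7% on the deposited scale. Contrasts between top and bottom class were few: 13 genes lay in the top class of the XX means (8.73 or more) and in the bottom class of the XY means (5.43 or less). All 13 passed, which this choice favours. On the means of the later times 3 of the 13 showed the same contrast. At 0 h XO stood in its bottom class for 4 of them, in its top class for 4 and between for 5. The reverse, top class in XY and bottom class in XX, was found for 0 genes.

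**Figure D2:**
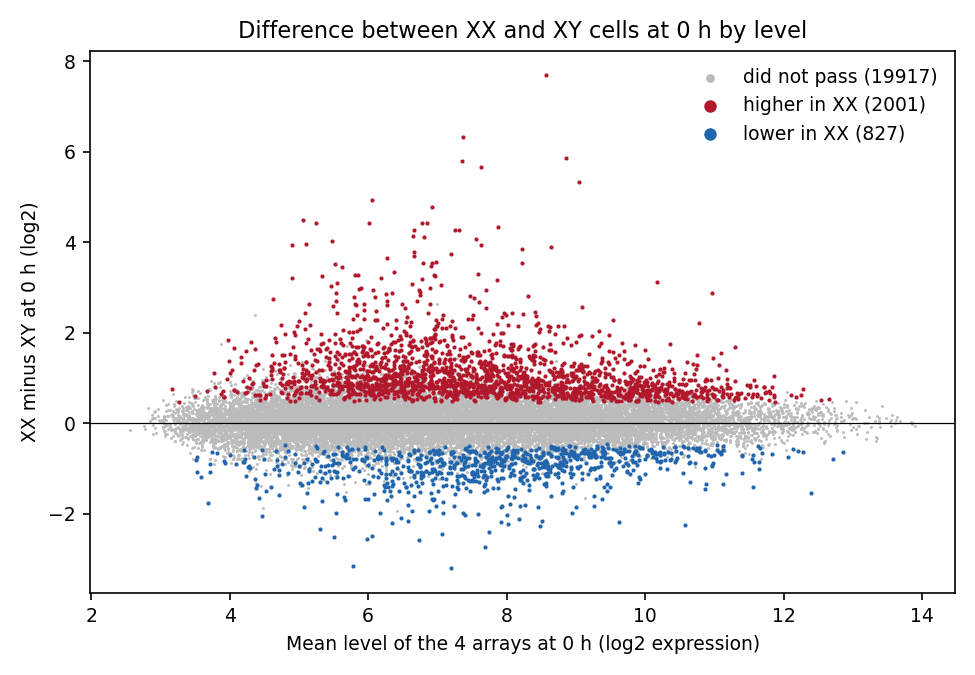
XX minus XY difference at 0 h (log2, vertical axis) of each of 22745 genes against its mean level in the 4 arrays (log2 expression, horizontal axis). Red points are the 2001 genes higher in XX, blue points the 827 lower in XX, and grey points did not pass. The upper arm reaches 7.69 and the lower arm -3.20.

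The identifiers with the largest differences in each direction show 4 different histories. ENSMUSG00000067764 had the largest difference of all. In replicates A and B its level was 12.31 and 12.52 in XX cells, 7.40 and 7.34 in XO cells, and 4.04 and 5.41 in XY cells. Both XX arrays stood far above the others, and both XO arrays stood above both XY arrays. The XX minus XY difference was 7.69 (SE 0.37, limma adjusted p = 1.95e-05), between means of 12.42 ± 0.14 and 4.73 ± 0.97 (SD, n = 2). The XY mean lay in the lowest of the 4 level classes, and detection above background was not assessed here. Over all times the level was between 11.35 and 12.97 in 18 XX arrays, between 6.32 and 9.94 in 19 XO arrays and between 4.04 and 7.51 in 10 XY arrays. No XX array thus fell within the range of XO or XY. The ranges of XO and XY over all times overlapped, but XO stood above XY at each of the 7 times with both. In XY the level rose from the 0 h values to 7.51 at 32 h and was 5.82 at 72 h and 5.35 at 84 h, and in XO it reached 9.94 at 48 h and stood at 7.54 at 84 h, whereas XX moved from 12.58 at 24 h to 12.79 at 84 h.

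ENSMUSG00000025630 differed between XX and XY nearly as much, but here XO lay close to XX. At 0 h the XX arrays read 10.54 and 10.52, the XO arrays 9.32 and 9.25 and the XY arrays 4.12 and 4.28. The Pgk12.1 arrays of both karyotypes stood far above both XY arrays, and XX also stood above XO. The XX minus XY difference was 6.33 (SE 0.14, limma adjusted p = 2.40e-07), between means of 10.53 ± 0.014 and 4.20 ± 0.12 (SD, n = 2). The XY mean again lay in the lowest class, with detection above background not assessed. In the same fit XX minus XO was 1.25 (limma adjusted p = 0.00148) and XO minus XY 5.08 (limma adjusted p = 8.34e-07). Over all times the XX arrays lay within 10.31 to 10.69, the XO arrays within 9.25 to 10.16 and the XY arrays within 4.12 to 4.72, so the lines never overlapped. An external mouse reference RNA, run on 1 array, stood at 8.56.

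ENSMUSG00000003657 had the largest difference in the other direction and lost it within a day. At 0 h XX cells had levels of 5.66 and 5.52, XO cells of 6.34 and 6.34, and XY cells of 9.19 and 8.40. Both XY arrays stood above all 4 Pgk12.1 arrays. The XX minus XY difference was -3.20 (SE 0.28, limma adjusted p = 3.35e-04), between means of 5.59 ± 0.10 and 8.80 ± 0.56 (SD, n = 2). In XY cells the level was 7.32 at 8 h, 6.36 at 16 h, 5.76 at 24 h and 5.27 at 32 h. XX cells stood at 5.80 at 24 h and 5.66 at 32 h, so that the lines had met, and XX stayed between 5.04 and 5.80 over all times. These levels of both lines lay near or below the limit of the lowest class (5.53), with detection above background not assessed.

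ENSMUSG00000086173 was low in XX at 0 h and rose in all 3 lines. The 0 h arrays gave 4.59 and 3.79 for XX, 5.76 and 5.70 for XO, and 7.45 and 7.26 for XY. The 3 lines did not overlap. The XX minus XY difference was -3.16 (SE 0.30, limma adjusted p = 4.71e-04), between means of 4.19 ± 0.57 and 7.36 ± 0.14 (SD, n = 2). The XX mean lay in the lowest class, with detection above background not assessed. XX cells stood at 3.84 at 6 h, 4.01 at 12 h, 5.00 at 18 h and 6.88 at 24 h, when XY cells stood at 8.85. At 48 h the levels were 8.55 in XX and 9.16 in XY, at 60 h 8.90 and 8.80, at 72 h 8.71 and 9.50, and at 84 h 9.36 and 9.55. XX was thus below XY at all of these times but 60 h.

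**Figure D3:**
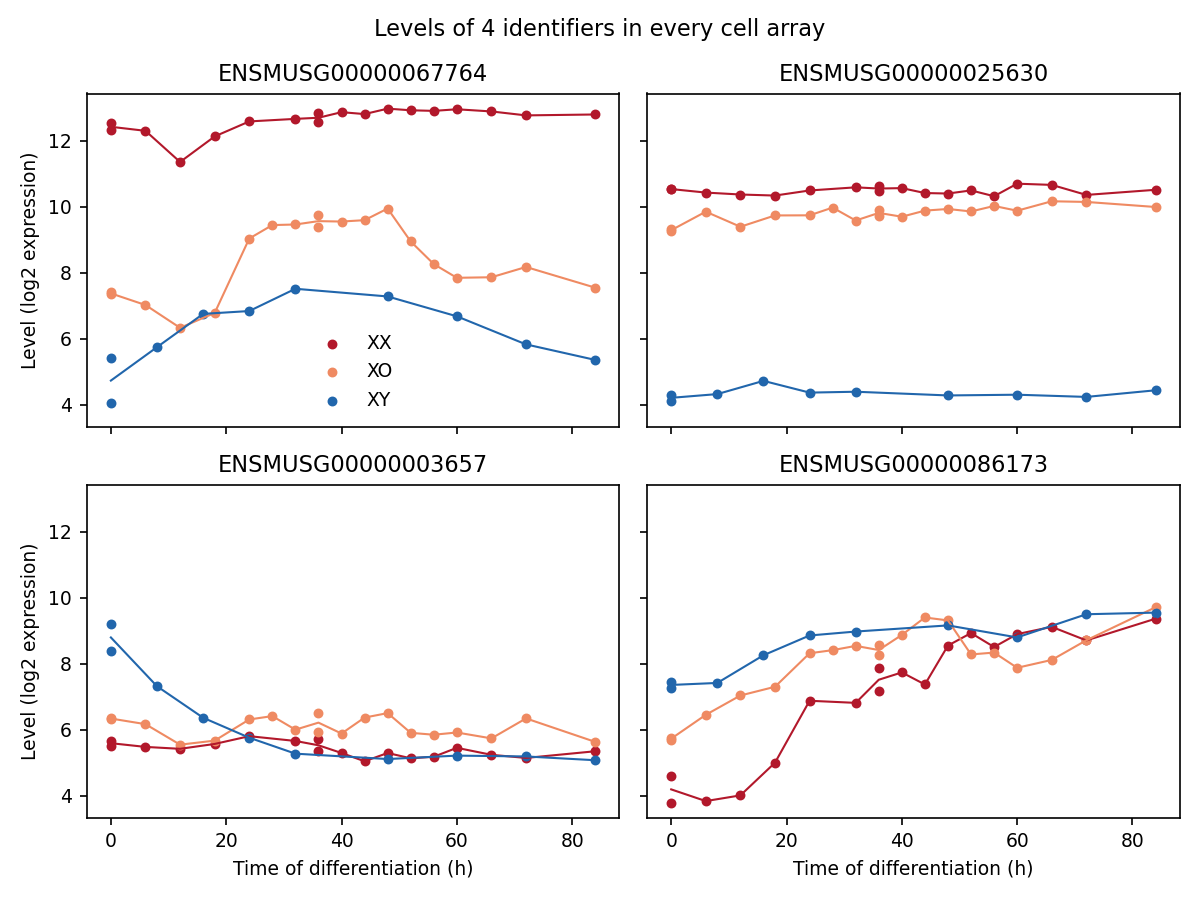
Level (log2 expression, vertical axis) of 4 identifiers in each of 47 cell arrays against hours of differentiation, with 1 point per array and lines through the mean of each time. XX is red, XO orange and XY blue. The upper identifiers keep XX (at least 11.35 and 10.31) above XY (at most 7.51 and 4.72) at all times, while in the lower panels the gap closes by 24 h for ENSMUSG00000003657 and becomes smaller for ENSMUSG00000086173, where XX (8.71) is again below XY (9.50) at 72 h.

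To measure how large the differences were in arrays that had no part in finding them, genes were chosen on replicate A at 0 h and measured on replicate B. The 1205 genes at least 1 log2 unit higher in XX A than in XY A had a median XX minus XY difference of 0.98 on replicate B, beside 0.083 for all genes. XX B exceeded XY B for 89% of them, against 57.3% of all genes. The 557 genes at least 1 log2 unit lower in XX A had a median of -0.61 on replicate B, and XX B exceeded XY B for 18.3% of them. The 189 genes higher by 2 log2 units or more had a median of 2.24 on replicate B. The 35 genes lower by that much had -1.41.

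On these sets the XO cells, which took no part in the choice, lay in different places. At 0 h the genes chosen as higher in XX had a median level of 7.41 in XX B, 6.73 in XO B and 6.21 in XY B, and their XO minus XY median was 0.36. For those chosen at 2 log2 units the medians were 7.88, 6.28 and 5.50. For the genes chosen as lower the medians were 6.67 in XX B, 6.79 in XO B and 7.37 in XY B, with an XO minus XY median of -0.47. XO B was nearer to XX B than to XY B for 43.4% of the genes chosen as higher, for 59.4% of those chosen as lower and for 53.9% of all genes. After centring these shares were 42.4%, 60.6% and 53.1%. Genes higher in XX thus had XO on the side of XY slightly more often than genes at large, and genes lower in XX had XO on the side of XX slightly more often. The difference between these shares was not tested.

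In the fit at 0 h, the comparisons of XX with XO and of XO with XY share arrays with the comparison of XX with XY and are given side by side only. The 2001 genes higher in XX than in XY had medians of 0.60 for XX minus XO and 0.37 for XO minus XY. Replicates A and B had median levels for these genes of 8.07 and 8.15 in XX, then 7.33 and 7.35 in XO, then 6.91 and 6.89 in XY. The 827 genes lower in XX had medians of -0.21 for XX minus XO and -0.69 for XO minus XY. Here the XX arrays had medians of 7.40 and 7.34, the XO arrays 7.60 and 7.61 and the XY arrays 8.34 and 8.37. XO therefore lay between XX and XY in both lists, farther from XX in the first and nearer to XX in the second, although genes picked for extreme XX and XY arrays will tend to have XO in between. Over all genes, the medians were 0.058 for XX minus XO and 0.029 for XO minus XY. For XX minus XO 9.15% of genes were called, 7.53% higher and 1.62% lower, and for XO minus XY 9.7%, 4.27% higher and 5.43% lower. After centring, XX minus XO had 1153 genes higher and 553 lower, and XO minus XY 823 and 1505.

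How these naive-state differences fared during differentiation was followed on the same sets. XX and XY were both measured, with 1 array of replicate B each, at 24, 32, 48, 60, 72 and 84 h. The XY array at 84 h stood apart, with a mean correlation with the other cell arrays of 0.901 against at least 0.932 for the rest, so values at 84 h rest on an unusual array. Levels here are medians of a set minus the median of all genes on the same array. The genes chosen as higher in XX stood at 0.43 in XX at 0 h and at 0.43, 0.40, 0.24, 0.22, 0.08 and -0.0024 at the 6 later times. In XY they stood at -0.59 at 0 h and between -0.58 and -0.41 afterwards. From 32 h on the level in XX came down, while XY moved less, and between 0 and 24 h the gap narrowed with a higher level in XY. XO stood at -0.18 at 0 h and at -0.08 at 84 h, by which time XX had come close to it. The 189 genes chosen at 2 log2 units had a level in XX of 0.90 at 0 h and -0.26 at 84 h, and in XY of -1.30 and -1.46. The median XX minus XY difference, relative to all genes, was 0.90 at 0 h, 0.66 at 24 h, 0.85 at 32 h, 0.63 at 48 h, 0.62 at 60 h, 0.41 at 72 h and 0.45 at 84 h.

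The genes chosen as lower in XX narrowed their gap in another way. In XY they stood at 0.57 at 0 h, 0.26 at 24 h and -0.11 at 32 h, and between 0.02 and 0.17 from 48 h on. In XX they stood at -0.31 at 0 h, and at -0.62, -0.57, -0.54, -0.47, -0.37 and -0.25 at the 6 later times. Both lines came down to 24 h with the gap kept, and afterwards the gap narrowed with a further drop in XY at 32 h and with a rising level in XX. XO stood at -0.12 at 0 h, -0.61 at 60 h and -0.22 at 84 h, on the XX side of XY at each time. Their median XX minus XY difference, relative to all genes, was -0.69 at 0 h, -0.70 at 24 h, -0.50 at 32 h, -0.49 at 48 h, -0.19 at 60 h, -0.36 at 72 h and -0.30 at 84 h. The 35 genes chosen at 2 log2 units took another course. Their level in XX was -0.46 at 0 h and 0.88 at 84 h, and in XY 0.84 and 1.22, so that XX came up towards XY. Choosing genes by their difference at 0 h favours those that differ most at that stage, and narrowing is not independent of that choice. Each later time has 1 array per line and no replicate error.

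**Figure D4:**
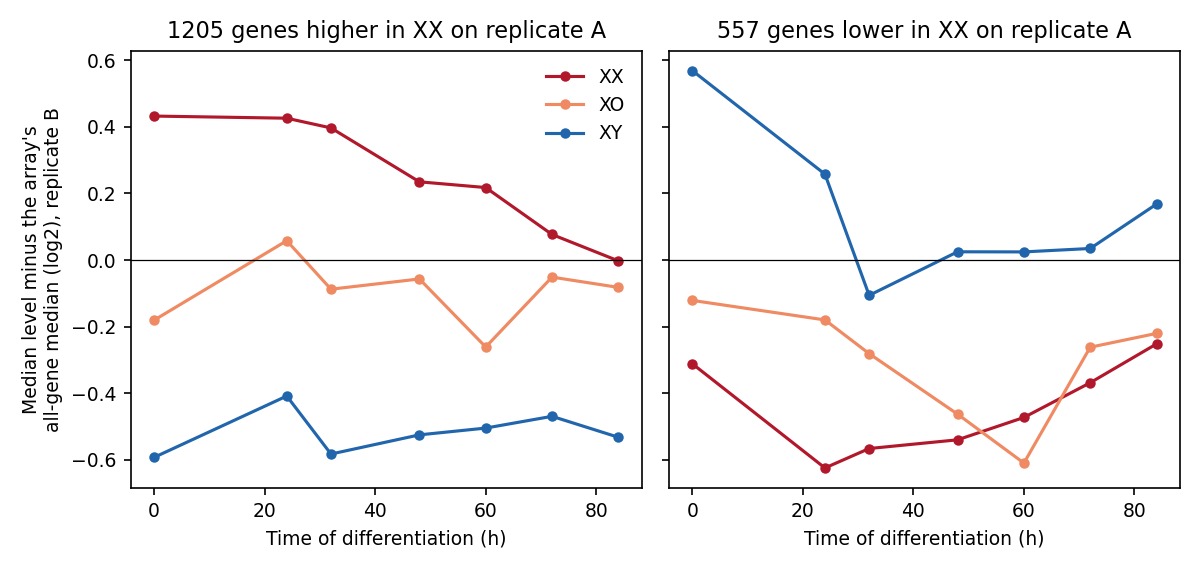
Median level relative to the array's all-gene median (log2, vertical axis) of the genes at least 1 log2 unit higher (left, 1205 genes) or lower (right, 557 genes) in XX than in XY on replicate A at 0 h, on replicate B arrays against hours of differentiation. XX is red, XO orange and XY blue, with 1 array per point. On the left XX comes down from 0.43 to -0.0024 while XY stays between -0.59 and -0.41, and on the right XY comes down from 0.57 to -0.11 by 32 h.

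The later arrays also gave a test of the line difference that uses none of the 0 h arrays. With the time as a block, 5275 genes (23.2% of all genes) passed over 24 to 84 h (limma, 12 arrays). XX had the higher level for 3559 (15.6%) and the lower level for 1716 (7.54%). After centring the counts were 2128 and 3317, so this split too rests on the scaling. Without the 60 h arrays 3281 genes passed. Whether the wells of a time course came from separate cultures is not stated. Of the 2001 genes higher in XX at 0 h, 1080 (54%) were called higher again over the later times, 898 did not pass and 23 were called lower. Of the 827 genes lower at 0 h, 320 (38.7%) were called lower again, 476 did not pass and 31 were called higher. The 1400 genes called the same way at both stages were 26.5% of the later calls. After centring the shares that returned were 48.4% of the higher and 47% of the lower genes, so no order between the directions can be read from them. Without 84 h the shares were 49.8% and 35.3%.

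The largest differences were followed in the same way, with no test between the shares. Of the 157 genes that exceeded XY by 2 log2 units or more at 0 h, 107 (68.2%) were called higher over 24 to 84 h, against 15.6% of all genes. A positive difference was found for 145 of them, with a median of 2.63 at 0 h and 1.49 later. At single later times XX exceeded XY for 54.2% to 59% of all genes. These shares rest on single pairs of arrays, whereas the 145 genes were counted on the difference fitted over all later times. Of the 23 genes below XY by as much, 8 (34.8%) were called lower again, against 7.54% of all genes called lower. A negative difference was found for 15 of them, with a median of -2.26 at 0 h and -0.55 later. Both sets were chosen for their size in the 0 h arrays, which favours a smaller difference later. ENSMUSG00000067764 and ENSMUSG00000025630 passed again. The first had a difference of 6.21 (SE 0.28, limma adjusted p = 1.10e-05), and the second one of 6.17 (SE 0.10, limma adjusted p = 1.60e-08). ENSMUSG00000003657 had a later difference of 0.18 (SE 0.11, limma adjusted p = 0.264). ENSMUSG00000086173 had one of -0.94 (SE 0.30, limma adjusted p = 0.0527), which passed after centring (limma adjusted p = 0.0271) and without the 60 h arrays (limma adjusted p = 0.0424). It did not pass when the arrays at 24, 32, 48, 72 or 84 h were left out (limma adjusted p from 0.0505 to 0.129).

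**Figure D5:**
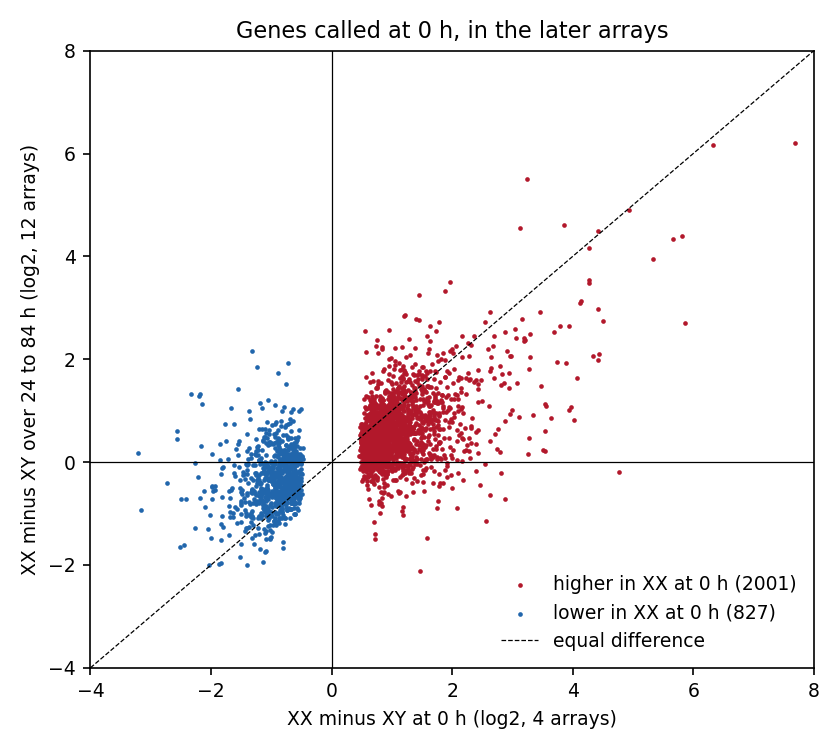
XX minus XY over 24 to 84 h (log2, 12 arrays, vertical axis) against XX minus XY at 0 h (log2, 4 arrays, horizontal axis) for the 2001 genes higher (red) and 827 genes lower (blue) in XX at 0 h, with a dashed line of equal difference. Most points lie nearer to 0 on the vertical than on the horizontal axis, which the choice of genes in the 0 h arrays favours. The largest differences in favour of XX (7.69 and 6.33 at 0 h) remain at 6.21 and 6.17.

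A direct test of whether the line difference had another size later than at 0 h called 123 genes, 0.541% of all (limma, 16 arrays), 52 of them (0.229%) with a larger signed XX minus XY value later and 71 (0.312%) with a smaller one. The 71 genes had a median XX minus XY difference of 1.75 at 0 h and -0.17 later. Their median level was 8.10 in XX and 6.03 in XY at 0 h, and 7.23 and 7.31 over the later times. The 52 genes had medians of -0.59 at 0 h and 1.27 later, with levels of 6.87 in XX and 8.02 in XY at 0 h and of 7.49 and 6.21 later. Of the genes called at 0 h, 62 higher and 23 lower ones had a difference that moved towards or past 0, and 0 had one that widened. Genes called at 0 h had to be far from 0 in those arrays, which favours narrowing. Scatter of the line difference among the later times enters the error of the test. A gene whose difference kept changing after 24 h can therefore fail it, so 0.541% is not the share of genes that changed. The test depended strongly on single arrays, with 52 genes left when XX A was dropped, 15 when XX B, 9 when XY A and 28 when XY B was dropped at 0 h. Dropping a time gave 78 for 48 h, 80 for 72 h and 251 for 24 h.

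Fewer genes had ranges of XX and XY that did not overlap over all times pooled. This criterion is stricter than a difference at each time, since a gene that moves in both lines can fail it. Every one of the 18 XX arrays lay above every one of the 10 XY arrays for 406 genes (1.79% of all genes), and below for 139 (0.611%). After centring these counts were 196 and 371, so their order rests on the scaling. With a gap of at least 0.5 log2 units between the lowest array of one line and the highest of the other, 59 genes stayed above and 10 below, or 38 and 26 after centring and 71 and 13 without 84 h. All 59 and all 10 were called at 0 h, whose arrays are part of the criterion. The 59 genes had a median difference of 2.69 at 0 h, and the 10 genes one of -1.41. In 28.8% of the 59 genes the XO arrays also lay wholly apart from XY, and in 32.2% wholly apart from XX. ENSMUSG00000025630 met both criteria and ENSMUSG00000067764 the second. With no minimum gap, XY lay below all XX and XO arrays for 84 genes (0.369%) and above them for 44 (0.193%), or 34 and 143 after centring. XX lay above all XO and XY arrays for 88 genes (0.387%), and below them for 0.022% of genes. After centring XX lay above for 50 genes and below for 22.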

How the data were processed

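Per the labels' protocols, total RNA of each sample was run on 1 Affymetrix exon array (Mouse Exon 1.0 ST). The deposited values are log2 expression per Ensembl gene identifier. Per the submitters' processing notes the authors used RMA from the affy package. Versions, probe annotation and genome build: not given in the sources used here. RMA equalises probe intensity distributions, so differences in total RNA per cell are not seen. All 48 columns were matched to samples by title. Arrays have no read depth, so their number limits the precision.

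Linear models were fitted per gene with limma 3.58.1 in R 4.3.3, with moderated two-sided tests (eBayes) and p-values adjusted over all 22745 genes by Benjamini and Hochberg's method at a threshold of 0.05. The 0 h contrast came from a fit of 10 duplicated arrays in 5 conditions, with 5 residual degrees of freedom. The conditions were XX, XO and XY at 0 h, and XX and XO at 36 h. The later difference used line plus time over 12 arrays, and the change of the difference added a term for later times over 16. Fits were tested on simulated data with independent noise per array and constant added shifts. The simulation had no time effect and no correlation within a course, so it does not bear on these. Alternatives were centring, quantile normalization, fewer arrays, a filter on low levels, a variance trend, a replicate block and left-out arrays or times.

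The comparison and gene lists were chosen with earlier results of these data known. Of 22745 identifiers, 0 matched the RefSeq table of 49997 genes, so 30 gene lists were not used, and by the rule for this case 2 identifiers per direction are named: those with the largest difference among called genes for which each of the 4 array pairs had that sign.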

Additional observations from a re-analysis of the deposited data

Results flagged for a closer look

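The XX minus XY difference of ENSMUSG00000003657 was higher over 24 to 84 h than at 0 h by 3.38 log2 units (SE 0.28, limma adjusted p = 0.00212) by a test of the difference itself. Its XY level went from 8.80 at 0 h to 5.08 at 84 h, and its XX level from 5.59 to 5.35. The value lay between 2.98 and 3.78 over the alternatives (adjusted p from 5.70e-04 to 0.0228). Over all genes, the same test called 123 whose line difference differed between the later times and 0 h, a count that single 0 h arrays moved to between 9 and 52.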

How the results depend on the processing

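The count of 2828 genes at 0 h was 1069 with only the 4 arrays of the comparison in the fit, where fewer arrays estimate the spread, and 1319 to 2005 when 1 of these arrays was left out. Replicate letters are not known to pair arrays, and the deviations of A and B correlated at -0.134 between XX and XY. A fit with the letter as a replicate block called 2621 genes, and one with the XY letters crossed, added after seeing the data, 2789. Centring gave 45.7% of 0 h calls and 39.1% of later calls higher in XX, both reversed from 70.8% and 67.5%. The all-gene median difference of 0.088 became -0.071 with centring and -0.026 with quantile normalization. Over 24 to 84 h, 3281 genes passed without 60 h, against 5275. For the change of the difference, 123 genes became 80 without 72 h, 78 without 48 h and 251 without 24 h, where 59% rather than 42.3% had a higher later value. Leaving out 1 array at 0 h, a step added after seeing the data, gave 9 to 52, of which 35.7% to 55.6% had a higher later value, the latter without XY A. The causes were not tested. The differences at 0 h of the 4 named identifiers passed in all alternatives that held them, at 7.0 to 8.38, 6.16 to 6.41, -3.60 to -2.81 and -3.57 to -2.76. Centring on autosomal genes, the X-linked and autosomal medians and the gene lists were not run, since the identifiers could not be paired with chromosomes or symbols here.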
